A study of Mus musculus with 7 samples.

Results

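ATP-binding cassette (ABC) proteins and the organic ion carriers of the solute carrier (SLC) families move drugs, bile acids, sterols and conjugated metabolites across cell membranes. Their expression was examined in Paneth cells sorted from mice, which sit at the base of small-intestinal crypts and secrete antimicrobial proteins. Members were all genes of the array table whose symbol belongs to the Abca to Abcg, Slc22a, Slc47a, Slco or Slc35a to Slc35f series, with pseudogenes left out. This gave 112 of 19938 named genes: 51 drug and organic ion transporters, 24 lipid transporters, 24 genes of the nucleotide sugar carrier family Slc35 and 13 other ABC genes. Total RNA was hybridised to 7 arrays, 1 per sample. Paneth cells of mice fed ad libitum gave 3 samples and those of calorie-restricted mice, which received 60% of the ad libitum calories, gave 4. All mice were 4 months old and were kept on their diet for 4 to 7 weeks. The labels name no strain, sex or genotype and call the samples biological replicates without saying how many animals each holds, so the p-values measure the spread between these samples.

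ABC exporters use ATP to push their substrates out of the cell or into an organelle. In absorptive intestinal cells, P-glycoprotein and its relatives sit on the luminal face and return drugs to the gut lumen, and Abcg5 and Abcg8 together return sterols. Most Slc22a and Slco proteins take up organic cations and anions, Slc47a proteins export cations in exchange for protons, and Slc35 proteins supply the Golgi and the endoplasmic reticulum with the activated sugars used to build glycoproteins such as mucins.

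Each gene's level is a log2 value of its transcript cluster, the probe set that the array uses for a whole gene. Such levels compare arrays for 1 gene and not genes with each other. A positive difference means a higher level under calorie restriction, in log2 units, and is followed by its standard error (SE) from the limma fit. A gene was tested where its mean over all arrays reached 6.79, the 40th percentile of all clusters, and called where its adjusted p was below 0.05. Of the 112 members 66 were tested, and 46 lay below the filter. Array medians ran from 7.24 to 7.44, correlations between arrays across genes from 0.949 to 0.993, and identical arrays numbered 0. Paneth markers were present in both diets: 11 of 12 listed genes had a cluster of their own and all 11 were tested, with list means between 12.74 and 13.17 on every array.

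Cell type markers differed between arrays, and they are given here because they touch the results that follow. The 21 enterocyte (absorptive cell) markers, all of them above the filter, had a mean of 11.88, 11.87, 11.82 and 11.63 under restriction (replicates 1 to 4) and of 11.07, 10.44 and 11.03 under free feeding (replicates 1 to 3), with 7 of 21 called higher against 0.656% of all genes tested. The 8 enteroendocrine markers had means of 10.49, 11.24, 11.25 and 10.27 under restriction (replicates 1 to 4) and of 10.87, 10.16 and 10.26 under free feeding (replicates 1 to 3). Of these 0 were called (limma, 2 higher at an unadjusted p below 0.05, against 6.89% of all genes). Goblet cell markers, 7 in number, had means between 13.19 and 13.39 on all arrays. The enterocyte means of the diets did not overlap, while the enteroendocrine means separated arrays within each diet. Their part in the transporter results was not tested. In RNA of whole sorted samples, more cells of a type and more RNA per cell cannot be told apart.

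**Figure D1:**
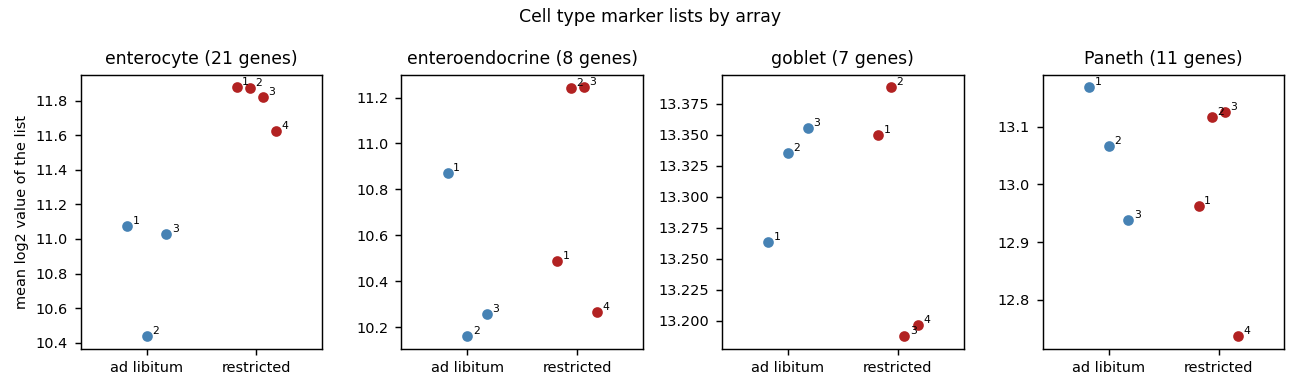
Mean log2 value of 4 cell type marker lists (vertical axis) on each array, by diet (horizontal axis), with each point an array and its number the replicate. Enterocyte means lie at 11.63 or above under calorie restriction and at 11.07 or below under ad libitum feeding, while enteroendocrine means are highest in calorie-restricted replicates 2 and 3 and ad libitum replicate 1. Axes do not start at 0 and differ between panels.

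Calorie restriction was accompanied by higher expression of 3 transporters: the cation exporter Slc47a1, the drug efflux pump Abcb1a and the cholesterol exporter Abca1. They were 3 of 66 tested members, or 4.545%, where 0.656% of all 13409 genes tested were called higher (limma, adjusted p below 0.05). Lower calls were 0 among the members, where 0.00746% of all genes were called lower. In all 3 called genes ad libitum replicate 2 was the lowest of its diet, as it was for the enterocyte marker mean (10.44). Calorie-restricted replicate 4 was the lowest of its diet in Slc47a1 and Abca1, as for that mean (11.63), while in Abcb1a replicate 1 was. Whether these levels are related was not tested. At an unadjusted p below 0.05, 10 members were higher (15.15%, against 6.89% of all genes) and 1 was lower (against 2.41%). The groups did not overlap, with all calorie-restricted arrays above, for 10 members against 7.14% of all genes, and 1 member lay below against 3.03%. The median difference was 0.08 over the members and 0.01 over all genes tested, and 43 of 66 members were positive, against 54.2% of all genes. Without ad libitum replicate 1 the members' median was 0.16 with 52 positive, and without ad libitum replicate 3 it was 0.06 with 40 positive. Over all 112 members, with no filter, the median was 0.00. After median centring of the arrays, 56 of 66 were positive and the median of all genes moved to 0.10.

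Promoter sequence is shown for 2 called genes, Abca1 and Abcb1a, and for the start region shared by Abcg5 and Abcg8. RefSeq windows matched 93 of the 112 members. Each is read 5′ to 3′ in build GRCm38.p6. Abca1 (chr4:53159896-53160145, minus strand) and Abcb1a (chr5:8566841-8567090, plus strand) are given as the 250 bases before the transcription start. The Abcg5 and Abcg8 genes start head to head, and the 109 bases between those starts (chr17:84683012-84683120, plus strand) are given once. Abcg8 has 2 annotated starts, and the one nearer to Abcg5 was used. Capitals mark matches on either strand to 5 motifs: a direct repeat core of 2 GGTNA half-sites with 5 bases between them, the full nuclear receptor half-site AGGTCA, the TATA box TATAAA, the GC box GGGCGG and the GATA factor core GATAA.
Abca1: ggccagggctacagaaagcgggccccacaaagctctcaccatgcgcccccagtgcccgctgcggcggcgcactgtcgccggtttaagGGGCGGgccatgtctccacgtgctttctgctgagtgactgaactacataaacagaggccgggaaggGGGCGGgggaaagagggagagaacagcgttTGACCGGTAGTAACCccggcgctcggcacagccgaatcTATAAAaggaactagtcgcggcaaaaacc
Abcb1a: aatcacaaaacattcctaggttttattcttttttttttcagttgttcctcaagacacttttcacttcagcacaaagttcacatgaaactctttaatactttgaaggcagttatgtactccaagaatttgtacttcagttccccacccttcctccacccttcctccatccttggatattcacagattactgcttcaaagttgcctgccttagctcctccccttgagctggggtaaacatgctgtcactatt
Abcg5-Abcg8 intergenic: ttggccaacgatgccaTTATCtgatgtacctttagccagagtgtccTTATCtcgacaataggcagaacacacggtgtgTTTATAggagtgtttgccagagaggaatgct

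In Abca1 the direct repeat core lay at positions -67 to -53 from the start, the TATA box at -29 to -24 and 2 GC boxes further upstream. The GGTNA core leaves out the first base of the full half-site, so full half-sites stand 1 base closer together than these cores. A direct repeat of such full half-sites, bound by the sterol-sensing liver X receptors, is well known in the Abca1 promoter. The loose form searched here was chosen after this window was read. It occurred in 0.621% of 32544 windows of 250 bases, against 33.0% for the GC box, 12.3% for the TATA box, 14.0% for the half-site and 22.5% for the GATA core. The Abcg5 and Abcg8 interval held 2 GATA cores and 1 TATAAA match, which were in 9.38% and 5.88% of windows of 109 bases. All of these matches read on the minus strand, opposite to the printed one. None of the 5 motifs was found in the Abcb1a window. A match describes the letters only, and no binding was measured.

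Among drug and organic ion transporters, 24 of 51 were tested, 2 were called higher (8.33%, against 0.656% of all genes) and 0 lower (against 0.00746%). The median difference was 0.08, and 0.14 without ad libitum replicate 1 or 0.13 without ad libitum replicate 2. Slc47a1 encodes MATE1, which exports organic cations such as metformin in exchange for protons. Its values were 9.004, 9.21, 9.31 and 8.72 under restriction (replicates 1 to 4) and 7.83, 7.39 and 7.91 under free feeding (replicates 1 to 3). All 4 calorie-restricted arrays lay above all 3 ad libitum arrays. Means were 9.06 ± 0.26 (SD, n = 4) and 7.71 ± 0.28 (SD, n = 3), a 2.55-fold difference (1.35 ± 0.18 SE, limma adjusted p = 0.0213). It was the largest difference among the tested members. Its neighbour on chromosome 11, Slc47a2, encodes the related exporter MATE2 and lay below the filter (mean 6.37).

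Abcb1a encodes P-glycoprotein, the drug efflux pump of the mouse intestine. Its values were 11.61, 11.67, 11.85 and 11.81 under restriction (replicates 1 to 4) and 11.22, 10.85 and 10.98 under free feeding (replicates 1 to 3), and the diets did not overlap. It was 1.65-fold higher under calorie restriction (11.74 ± 0.11 against 11.02 ± 0.19, difference 0.72 ± 0.11 SE, limma adjusted p = 0.0365). Its neighbours on chromosome 5, the second mouse P-glycoprotein gene Abcb1b and the phosphatidylcholine flippase gene Abcb4, were below the filter, with means of 6.48 and 6.27.

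The calls of both genes depended on single arrays. Leaving out calorie-restricted replicate 1, 2 or 3 moved the adjusted p of Slc47a1 to 0.0862, 0.0854 or 0.0757, and leaving out ad libitum replicate 2 moved it to 0.0691 (limma). Leaving out calorie-restricted replicate 1, 2, 3 or 4 moved that of Abcb1a to 0.0930, 0.115, 0.117 or 0.0713, and leaving out ad libitum replicate 2 or 3 moved it to 0.138 or 0.0760. The differences themselves stayed between 1.19 and 1.62 for Slc47a1 and between 0.64 and 0.82 for Abcb1a over the 17 alternatives tried.

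**Figure D2:**
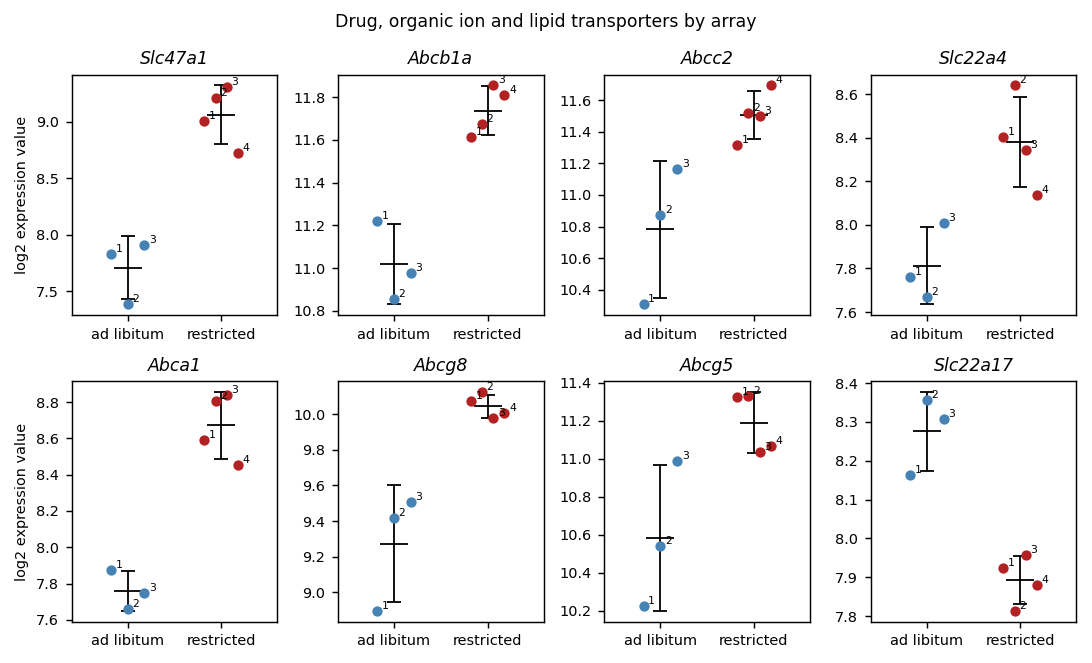
Log2 expression value (vertical axis) of 8 transporter genes on each array, by diet (horizontal axis). Points are arrays numbered by replicate, horizontal bars are means and whiskers are ± 1 SD (n = 3 ad libitum, n = 4 calorie restricted). In 7 panels every calorie-restricted array lies above every ad libitum array, and in Slc22a17 every one lies below. The panels were chosen after the values were seen. Among the 66 tested members 10 lay wholly above and 1 wholly below, against 7.14% and 3.03% of all genes tested. Axes do not start at 0 and differ between panels.

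Other apical exporters of drugs and conjugates had differences in the same direction that did not pass the test. Abcc2 (MRP2), which exports glutathione and glucuronide conjugates, stood at 11.32, 11.52, 11.50 and 11.69 under restriction (replicates 1 to 4) and at 10.31, 10.87 and 11.17 under free feeding (replicates 1 to 3). The diets did not overlap, but ad libitum replicate 1 lay well below the other ad libitum arrays and the difference of 0.73 ± 0.19 was not called (limma adjusted p = 0.207). Abcg2 (BCRP), an efflux pump for drugs and urate, had a difference of 0.46 ± 0.17 (adjusted p = 0.421), with ad libitum replicate 3 within the calorie-restricted range.

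The exporters Abcc3 and Abcc4, which act mostly on the blood-facing side, differed by 0.28 ± 0.15 and 0.36 ± 0.23, and both diets overlapped. Abcc1, the glutathione conjugate and leukotriene exporter MRP1, had a difference of -0.18 ± 0.18. Its level was 9.84 in calorie-restricted replicate 4 and between 10.25 and 10.29 in the other 3. The broad-specificity family members Abcc5 and Abcc10 were at -0.07 ± 0.08 and -0.12 ± 0.18.

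The Slc22a family, which takes up organic cations, anions and carnitine, had 11 of 23 genes tested. Of these 0 were called (limma, against 0.656% of all genes higher and 0.00746% lower). At an unadjusted p below 0.05, 1 was higher (9.09%, against 6.89% of all genes) and 1 lower (against 2.41%). Slc22a4, the ergothioneine carrier OCTN1, stood at 8.40, 8.64, 8.34 and 8.14 under restriction (replicates 1 to 4) and at 7.76, 7.67 and 8.01 under free feeding (replicates 1 to 3). The diets did not overlap (0.57 ± 0.14, limma adjusted p = 0.172). It lies in a row on chromosome 11 with the carnitine carriers Slc22a21 and Slc22a5, whose differences were -0.01 ± 0.19 and 0.11 ± 0.09.

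Slc22a17, a receptor for the iron-binding lipocalin 2, had the largest downward difference of all tested members. It stood at 7.92, 7.81, 7.96 and 7.88 under restriction (replicates 1 to 4) and at 8.16, 8.36 and 8.31 under free feeding (replicates 1 to 3). All calorie-restricted arrays lay below the ad libitum arrays, with a difference of -0.38 ± 0.09 that did not pass (limma adjusted p = 0.141). Slc22a23, a family member with no settled substrate, was at 10.82 ± 0.31 against 10.73 ± 0.40, and its 95% interval ran from -0.41 to 0.58. The other tested Slc22a genes, namely Slc22a12, Slc22a13, Slc22a13b, Slc22a15, Slc22a18 and Slc22a20, had differences between -0.11 and 0.16.

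Of 15 organic anion carriers of the Slco family, 4 were tested and 0 called (limma, against 0.656% of all genes higher and 0.00746% lower). At an unadjusted p below 0.05 there were 0, against 6.89% of all genes higher and 2.41% lower. Slco2a1, the prostaglandin carrier, had the widest spread within a diet: 9.59, 10.42, 10.23 and 9.36 under restriction (replicates 1 to 4) and 9.87, 8.86 and 8.78 under free feeding (replicates 1 to 3). Its 3 highest arrays, calorie-restricted replicates 2 and 3 and ad libitum replicate 1, were those with the highest enteroendocrine means, a relation that was not tested. The difference was 0.73 ± 0.34 (95% interval -0.04 to 1.50, limma adjusted p = 0.578). Slco2b1, a carrier of steroid sulphates, was at 9.03, 8.60, 8.60 and 9.45 under restriction (replicates 1 to 4) and at 7.99, 8.43 and 9.01 under free feeding (replicates 1 to 3), so the diets overlapped (0.44 ± 0.28). Slco3a1 and Slco4a1 differed by 0.04 ± 0.11 and 0.08 ± 0.12. The liver carriers Slco1a1, Slco1a4 and Slco1b2 were among the 11 below the filter.

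The lipid transporters had 10 of 24 genes tested, 1 called higher (against 0.656% of all genes) and 0 lower (against 0.00746%). The median difference of 0.15 depended on single arrays: it was 0.06 without ad libitum replicate 3, 0.25 without ad libitum replicate 1, 0.10 without calorie-restricted replicate 2 and 0.23 without calorie-restricted replicate 4. Over all 24 genes it was -0.04. Abca1, which loads cholesterol and phospholipid onto apolipoprotein A-I, stood at 8.59, 8.81, 8.84 and 8.45 under restriction (replicates 1 to 4). Under free feeding (replicates 1 to 3) it stood at 7.88, 7.66 and 7.75, all below the calorie-restricted arrays. It was 1.88-fold higher (8.67 ± 0.18 against 7.76 ± 0.11, difference 0.91 ± 0.12 SE, limma adjusted p = 0.0213). Leaving out calorie-restricted replicate 1, 2 or 3 gave an adjusted p of 0.0783, 0.0854 or 0.0772, and leaving out ad libitum replicate 2 or 3 gave 0.0985 or 0.0527. Over the 17 alternatives its difference lay between 0.86 and 1.05.

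Abcg5 and Abcg8 encode the partner subunits of the sterol exporter of the luminal membrane, and their starts flank the interval printed above. Abcg8 stood at 10.07, 10.12, 9.98 and 10.00 under restriction (replicates 1 to 4) and at 8.90, 9.42 and 9.51 under free feeding (replicates 1 to 3). The diets did not overlap, and the 1.71-fold difference (0.77 ± 0.15 SE) missed the threshold (limma adjusted p = 0.0696). It passed without ad libitum replicate 1, its lowest array (difference 0.58, adjusted p = 0.0380), after median centring (0.0374) and with array weights (0.00497). Under the other 14 alternatives the adjusted p lay between 0.0587 and 0.298. Abcg5 stood at 11.33, 11.33, 11.04 and 11.07 under restriction (replicates 1 to 4) and at 10.22, 10.54 and 10.99 under free feeding (replicates 1 to 3). Its groups did not overlap, ad libitum replicate 1 was the lowest array as for Abcg8, and ad libitum replicate 3 lay just under the calorie-restricted arrays (0.61 ± 0.17, adjusted p = 0.260).

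The remaining lipid transporters had smaller differences. Abcd3, a peroxisomal importer of branched fatty acids and bile acid precursors, was at 11.18 ± 0.05 against 10.90 ± 0.13 without overlap (0.29 ± 0.08, limma adjusted p = 0.258). Abcg1, which moves sterols to lipoproteins, had a difference of 0.29 ± 0.15 with overlap. Abca3, the lamellar body lipid transporter of lung, and Abca7, Abca2, Abca5 and Abcg4 lay between -0.09 and 0.01, and the 95% intervals of these 5 genes included 0. Abca5 had the widest of these intervals, from -0.53 to 0.54. The bile salt exporter Abcb11, known from liver, lay below the filter together with 11 Abca genes.

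**Figure D3:**
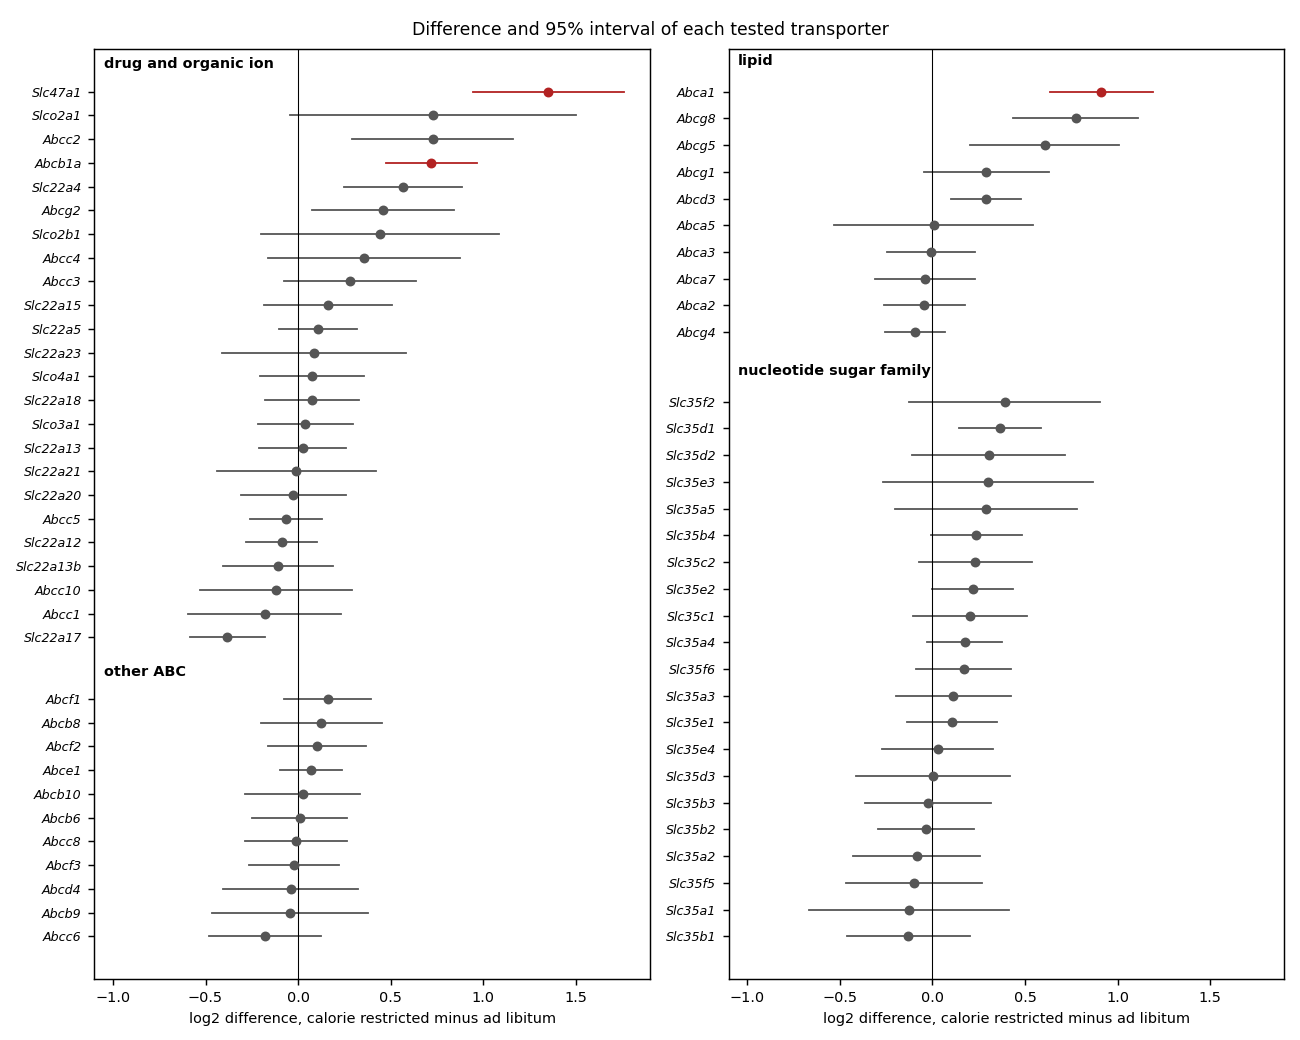
Difference, calorie restricted minus ad libitum in log2 units (horizontal axis), with its 95% interval for each of the 66 tested members (vertical axis), grouped by class. Red marks the 3 genes called higher, Slc47a1, Abcb1a and Abca1, whose intervals begin at 0.94, 0.47 and 0.64. Genes of the nucleotide sugar family and other ABC genes lie between -0.18 and 0.39.

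Of the nucleotide sugar family, 21 of 24 Slc35 genes passed the filter and were tested. Of these 0 were called (limma, against 0.656% of all genes higher and 0.00746% lower). At an unadjusted p below 0.05, 1 was higher (4.76%, against 6.89% of all genes) and 0 lower (against 2.41%). All 14 genes of Slc35a to Slc35d, which hold most carriers with known substrates, were above the filter. Differences ran from -0.13 to 0.39, and 15 of 21 were positive, against 54.2% of all genes. Their median was 0.17, and 0.08 without ad libitum replicate 3 or 0.26 after median centring. Slc35d1, which brings UDP-glucuronic acid and UDP-N-acetylgalactosamine into the endoplasmic reticulum, had the smallest p. It stood at 8.81, 8.72, 8.72 and 8.76 under restriction (replicates 1 to 4) and at 8.55, 8.31 and 8.30 under free feeding (replicates 1 to 3), without overlap (0.36 ± 0.10, limma adjusted p = 0.210).

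Carriers that serve terminal glycan sugars had intervals that included 0. Slc35a1, the CMP-sialic acid carrier, was at -0.13 ± 0.23 (95% interval -0.67 to 0.41), and Slc35c1, the GDP-fucose carrier, at 0.20 ± 0.13 (-0.11 to 0.51). Slc35a2, the UDP-galactose carrier, was at -0.09 ± 0.15 and Slc35a3, the UDP-N-acetylglucosamine carrier, at 0.11 ± 0.13. The carriers of the sulphate donor PAPS, Slc35b2 and Slc35b3, were at -0.03 ± 0.11 and -0.02 ± 0.15. Slc35b1, which human work describes as a nucleotide exchanger of the endoplasmic reticulum, was at 12.33 ± 0.15 against 12.46 ± 0.30 (-0.13 ± 0.14).

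With Slc35d1, the largest upward differences were those of Slc35a5, Slc35d2, Slc35e3 and Slc35f2, from 0.29 to 0.39, each of these 4 with overlap and an interval that included 0. Slc35a4 has 2 transcript clusters of its own symbol, and their differences were 0.17 and 0.26. Slc35e1 and Slc35f5, whose substrates are not settled, were at 0.10 ± 0.10 and -0.10 ± 0.16. Slc35d3, the tested member nearest above the filter, was at 6.91 in both diets, and Slc22a6, nearest below it, had a mean of 6.69.

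Most Slc35 genes had the same high and low arrays within a diet. Ad libitum replicate 1 was the highest of its diet in 18 of 21 tested genes (85.7%, against 47.7% of all genes), and calorie-restricted replicate 4 was the lowest of its diet in 15 of 21 (71.4%, against 36.8% of all genes). Lipid transporters and other ABC genes also leaned to this order: ad libitum replicate 1 was highest in 8 of 10 and in 8 of 11. Calorie-restricted replicate 4 was lowest in 5 of 10 and in 7 of 11. Drug and organic ion transporters did not have it. In that class ad libitum replicate 1 was highest in 10 of 24 (41.7%, against 47.7% of all genes) and lowest in 11. Calorie-restricted replicate 4 was lowest in 9 of 24 (37.5%, against 36.8% of all genes). For Slc35a1 the values were 9.90, 9.98, 9.96 and 9.38 under restriction (replicates 1 to 4) and 10.48, 9.70 and 9.61 under free feeding (replicates 1 to 3). Slc35e3 stood at 8.28, 8.58, 8.55 and 7.91 and at 8.57, 7.92 and 7.60 in the same order. The span within a diet exceeded the difference between diets for both genes. Slc35f2, Slc35b3 and the brighter Slc35a4 cluster ran the other way. There ad libitum replicate 1 was the lowest of its diet, at 9.11, 8.85 and 11.52. In the other Slc35a4 cluster ad libitum replicate 1 was the highest of its diet (9.81, against 9.50 and 9.68 in replicates 2 and 3). Ad libitum replicate 1 and calorie-restricted replicate 4 also had the highest and the lowest mean of the 11 Paneth markers, 13.17 and 12.74, whose part in this pattern was not tested.

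**Figure D4:**
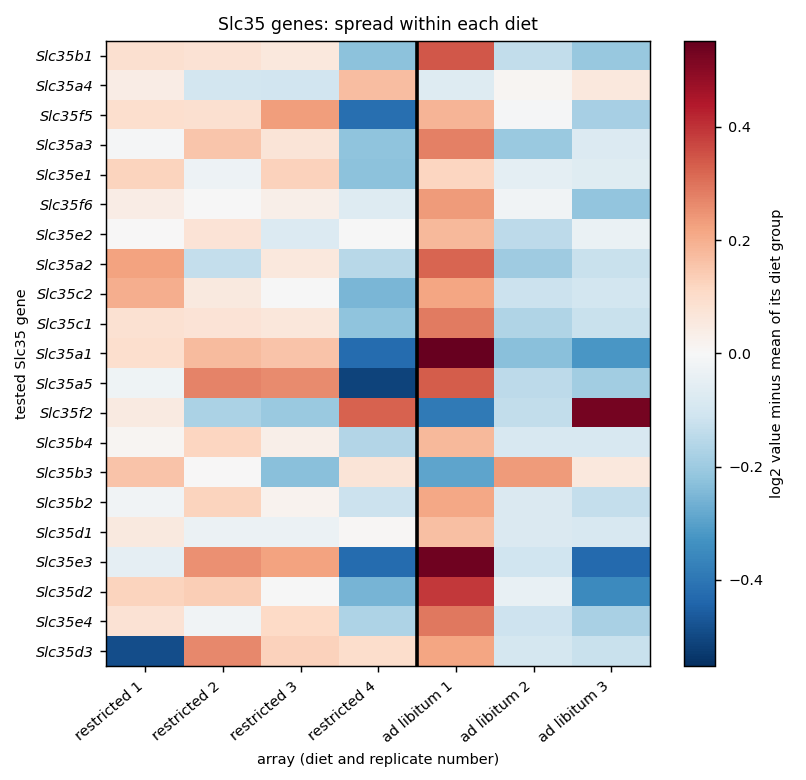
Log2 value of each of 21 tested Slc35 genes (vertical axis) on each array (horizontal axis) minus the mean of its own diet group, red for above and blue for below that mean, with a black line between the diets. Ad libitum replicate 1 is mostly red and calorie-restricted replicate 4 mostly blue. Slc35f2, Slc35b3 and Slc35a4, the last drawn from its brighter cluster, are exceptions for ad libitum replicate 1.

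The other ABC genes serve ribosomes, organelles and ion channels more than drug or lipid export. Here 11 of 13 were tested with 0 called (limma, against 0.656% of all genes higher and 0.00746% lower). At an unadjusted p below 0.05 there were 0, against 6.89% of all genes higher and 2.41% lower. The median difference was 0.01, with values between -0.02 and 0.11 when 1 array was left out, and all 11 intervals included 0. Abce1, which splits ribosomes for recycling, was at 12.17 ± 0.07 against 12.10 ± 0.08, and the translation-linked Abcf1, Abcf2 and Abcf3 differed by 0.16 ± 0.10, 0.10 ± 0.11 and -0.02 ± 0.11. The porphyrin transporter Abcb6 (0.01 ± 0.11), the mitochondrial Abcb8 (0.13 ± 0.14) and Abcb10 (0.03 ± 0.13), the lysosomal peptide transporter Abcb9 (-0.04 ± 0.18) and the lysosomal cobalamin transporter Abcd4 (-0.04 ± 0.16) lay close to 0. Abcc6, known for its role in preventing ectopic calcification, was at -0.18 ± 0.13, and the potassium channel subunit gene Abcc8 at -0.01 ± 0.12.

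The 46 members below the filter had means from 4.24 to 6.69 and differences from -0.21 to 0.11, which were not tested. In 2 of them a single array or more passed the filter level. They included 11 of 15 Slco, 12 of 23 Slc22a and 11 of 16 Abca genes. Of 23 pairs of members that are next to each other among the protein-coding genes of the assembly, both genes were tested in 3 pairs, 1 gene in 5 and neither in 15.

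Genes that act with these transporters were followed in 4 lists, beside which all genes tested had 0.656% called higher, 0.00746% called lower, 6.89% higher and 2.41% lower at an unadjusted p below 0.05, and a median difference of 0.01. Of 13 tested partners of drug and organic ion carriers, 1 was called higher and 0 lower, with a median difference of 0.47. At an unadjusted p below 0.05 (limma), 9 were higher (69.23%) and 0 lower. The called gene was Slc9a3r1, which encodes the NHERF1 scaffold that anchors transporters at the apical membrane. It stood at 11.54, 11.47, 11.50 and 11.33 under restriction (replicates 1 to 4) and at 11.04, 10.87 and 10.86 under free feeding (replicates 1 to 3), without overlap (1.45-fold, limma adjusted p = 0.0411). The call was lost without any of calorie-restricted replicates 1 to 3 or ad libitum replicates 2 and 3, and after median centring (adjusted p from 0.0904 to 0.187). It was also lost with the ordinary linear model and the replicate block, which called 0 of all genes. The peptide carrier Slc15a1, also an enterocyte marker, was 2.57-fold apart (adjusted p = 0.0673).

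Of 10 tested partners of lipid transporters, 0 were called (limma, 3 higher and 0 lower at an unadjusted p below 0.05), with a median of 0.21. Npc1l1, which takes up luminal sterol and so opposes Abcg5 and Abcg8, was at 11.39 ± 0.15 against 10.58 ± 0.28 (adjusted p = 0.0562). Apoa1, which accepts the cholesterol exported by Abca1 and is also an enterocyte marker, was at 13.23 ± 0.24 against 12.18 ± 0.41 (adjusted p = 0.0677).

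Of 12 tested nuclear receptors and other regulators, 0 were called (limma, 4 higher and 0 lower at an unadjusted p below 0.05), with a median of 0.20. Rxra, the shared partner of the liver X and other receptors, had a difference of 0.28 ± 0.08 (adjusted p = 0.271), and the drug-sensing receptor gene Nr1i3 one of 0.74 ± 0.23 (adjusted p = 0.302). Of 19 tested enzymes that make nucleotide sugars and PAPS, 0 were called (limma, 2 higher and 1 lower at an unadjusted p below 0.05), with a median of 0.02. Papss2, which makes PAPS, stood at 11.82, 11.65, 12.11 and 12.00 under restriction (replicates 1 to 4) and at 10.85, 9.96 and 10.91 under free feeding (replicates 1 to 3), without overlap (adjusted p = 0.0556). Gmds, which starts GDP-fucose synthesis, had a difference of -0.27 ± 0.08 (adjusted p = 0.264).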

How the data were processed

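Sorted Paneth cells of 7 samples were measured on 7 arrays. The deposited table gives log2 levels of transcript clusters, which the authors obtained with, per the submitters' processing notes, Affymetrix Expression Console. Which algorithm and normalization it ran is not given in the sources used here, and the log2 scale was inferred from the range of 2.97 to 14.67. The values were not scaled further, and the number of arrays limits the precision. Of 35556 clusters, 21789 had 1 gene symbol, 1621 several and 12146 none here. 1 cluster shared by several Slc22a genes was left out. Of several clusters per gene the brightest was kept, giving 19938 genes (Slc35a4 and Abcb5 have a second).

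The diets were compared with limma 3.58.1 in R 4.3.3 (lmFit, eBayes with an intensity trend, Benjamini-Hochberg over 13409 genes), which was tested on simulated data. Members and lists were chosen with earlier results of these data known. Named members were Slc47a1, called genes, the 5 brightest, 5 most upward and 3 most downward of each class, and those nearest the filter. From each pathway list, called genes and the 2 with the smallest p were named. Others named were chosen after their values were seen. Alternatives were other scalings, filters, cluster means, variance models, the replicate block and leaving out each array. Figures were drawn with matplotlib 3.10.9.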

Additional observations from a re-analysis of the deposited data

Results flagged for a closer look

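In the 4 calorie-restricted arrays, 1 array stood far from the other 3 in 4 of 50 named genes, as judged by its gap over the range of the group against Dixon's 95% critical value. Chance flags about 1 in 20 such groups. Calorie-restricted replicate 4 was the low array for Slc35b1 (12.11, others from 12.39 to 12.42), for Slc35a1 (9.38, others from 9.90 to 9.98) and for Abcc1 (9.84, others from 10.25 to 10.29). Calorie-restricted replicate 3 was the low array for Rxra (9.80, others from 9.93 to 9.95). The ad libitum group, with 3 arrays, was too small for this test.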

How the results depend on the processing

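Among the members, 3 genes were called higher. The count was 1 after quantile normalization, 19 with array weights, 0 with the ordinary linear model (10 members at an unadjusted p below 0.05) and 0 with the replicate block (11 members). It ranged from 0 to 4 when 1 array was left out. 1 member was called lower with array weights and 0 otherwise. Over all genes, 88 were called higher and 1 lower. Quantile normalization gave 53 higher and 0 lower, median centring 0 lower, no filter 2 lower, the 60th percentile filter 0 lower, array weights 963 higher and 392 lower, and the ordinary linear model and the replicate block 0 of each. Without 1 array the counts ran from 12 to 97 higher and from 0 to 9 lower. The labels do not say whether replicate numbers pair the samples. Deviations of same-numbered arrays correlated at -0.126, -0.265 and -0.550, and those of other pairs between -0.731 and 0.641. With so few arrays these values cannot settle whether the block fits the design. Calorie-restricted replicate 4 had no ad libitum partner in the block. The block differences of Slc47a1, Abcb1a and Abca1 were those found without that array (1.46, 0.70 and 0.98). Slc47a1 was called in 11 of 17 alternatives, Abca1 in 9 and Abcb1a in 8. After quantile normalization the adjusted p was 0.0406, 0.0553 and 0.0513 (limma). None of the 4 called named genes changed sign, and 57 sign changes among 830 values of named genes under the alternatives were of uncalled differences. The cause of these shifts was not tested, and fewer arrays also leave fewer degrees of freedom.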
